A study of Homo sapiens with 6 samples.

Results

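10 genes of the oxidative stress response were followed, chosen by name: the aldo-keto reductases AKR1B10, AKR1C1, AKR1C2 and AKR1C3, and NQO1, TXNRD1, GPX2, GCLM, GCLC and SRXN1, which are known targets of the transcription factor NRF2. All 10 had a named probe, 19 probes in all among the 47231 on the array. 9 genes had a probe detected on at least 1 array, with 12 detected probes, out of 12187 genes detected in the whole series. AKR1C1 was the exception, with 1 probe that no array detected. The genes were picked with earlier results of these arrays known.

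NRF2, encoded by NFE2L2, is a transcription factor that KEAP1 holds in the cytoplasm and delivers for degradation. When electrophiles or oxidants modify KEAP1, NRF2 accumulates, pairs with small MAF proteins and binds antioxidant response elements in the promoters of detoxifying genes. Its targets make and use glutathione and reduced thioredoxin and remove reactive carbonyls and quinones. Aldo-keto reductases, which use NADPH to turn carbonyls into alcohols, belong to this set in human epithelial cells, and tumours with active NRF2 often express them strongly.

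The study treated 3 established human cancer cell lines with imetelstat, a lipid-linked oligonucleotide that blocks the template of telomerase RNA, for 2 weeks and measured total RNA on expression arrays. HCT116 is a colon cancer line and was kept in DMEM, whereas COLO205, a colon cancer line, and OVCAR5, a line listed as ovarian, were kept in RPMI1640. Each line had 1 array for vehicle and 1 for imetelstat, 6 arrays in all. The sample titles mark the control arrays WT and the imetelstat arrays GRN. The labels call the control agent vehicle, the methods name a mismatch oligonucleotide and a legend describes untreated cells. The sources thus do not settle what the control cells received. The labels name no other treatment and no genetic change. With 1 array per line and agent, no error could be given for a difference within a line, and such differences are described without a test.

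The arrays had mean signals of 359.8 to 487.5 units, the lowest on the COLO205 imetelstat array, and detected 15627 to 17276 probes each at a detection p below 0.01. The arrays labelled COLO205 stood close to HCT116: their signals correlated with it at r of 0.976 to 0.987 across detected probes, which are not independent, and with OVCAR5 at 0.886 to 0.892. Of 16 colon epithelium markers, 5 were detected in HCT116, 5 on the arrays labelled COLO205 and 12 in OVCAR5, and CEACAM5, CEACAM6, CDH17 and KRT20 were not detected on either COLO205 array. Of 8 markers of ovarian and Müllerian epithelium 3, 5 and 4 were detected in these lines, and of 8 fibroblast and immune markers 1, 1 and 3. All these counts take detection on at least 1 array of the line. On both arrays of HCT116, COLO205 and OVCAR5 they were 5, 5 and 9 for colon, 3, 2 and 3 for ovarian, and 0, 1 and 3 for fibroblast and immune markers. COLO205 below stands for the arrays so labelled. Whether those arrays held RNA of that line was not tested, and OVCAR5 is therefore compared with each of the others on its own.

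The reference promoters are shown first because the genes share a regulator. RefSeq sequences (GRCh38.p14, 250 bases before to 50 after the start of the gene) were available for 9 of the 10 genes, all but AKR1B10, in 11 entries. The only motif searched was TGACNNNGC on either strand, the core of the antioxidant response element, with N for any base. It was present in the promoters of 3 of the 9 genes, GPX2, GCLM and TXNRD1, the last in both of its entries. Over all promoters of the same length it was in 4687 of 35116 (13.3%), a count of promoter entries and not of genes. A match describes these letters and is not a measured binding site, and no match says only that the letters are absent from this window. The promoters that hold it are printed 5′ to 3′ on the strand of the gene, with the motif in capitals, from chr14:64942696-64942995 (minus strand) for GPX2, chr1:93909381-93909680 (minus) for GCLM, and chr12:104215529-104215828 and chr12:104286782-104287081 (plus) for the 2 TXNRD1 entries.
GPX2: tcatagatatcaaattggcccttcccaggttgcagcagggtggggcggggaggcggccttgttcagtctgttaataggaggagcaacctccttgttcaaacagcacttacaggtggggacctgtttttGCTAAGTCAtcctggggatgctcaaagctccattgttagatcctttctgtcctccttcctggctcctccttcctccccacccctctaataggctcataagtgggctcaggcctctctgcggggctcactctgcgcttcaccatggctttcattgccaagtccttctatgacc
GCLM: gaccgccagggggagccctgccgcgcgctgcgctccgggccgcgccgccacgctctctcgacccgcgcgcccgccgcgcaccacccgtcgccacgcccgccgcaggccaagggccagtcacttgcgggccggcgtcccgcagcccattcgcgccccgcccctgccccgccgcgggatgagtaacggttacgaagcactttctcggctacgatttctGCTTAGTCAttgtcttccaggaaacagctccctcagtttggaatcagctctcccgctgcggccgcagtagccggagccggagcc
TXNRD1 entry 1: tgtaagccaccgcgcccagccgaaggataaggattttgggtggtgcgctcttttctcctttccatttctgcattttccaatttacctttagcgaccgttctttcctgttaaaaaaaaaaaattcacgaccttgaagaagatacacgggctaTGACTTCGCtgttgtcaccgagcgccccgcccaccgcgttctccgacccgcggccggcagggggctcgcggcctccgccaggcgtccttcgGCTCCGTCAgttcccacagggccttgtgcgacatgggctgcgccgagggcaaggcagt
TXNRD1 entry 2: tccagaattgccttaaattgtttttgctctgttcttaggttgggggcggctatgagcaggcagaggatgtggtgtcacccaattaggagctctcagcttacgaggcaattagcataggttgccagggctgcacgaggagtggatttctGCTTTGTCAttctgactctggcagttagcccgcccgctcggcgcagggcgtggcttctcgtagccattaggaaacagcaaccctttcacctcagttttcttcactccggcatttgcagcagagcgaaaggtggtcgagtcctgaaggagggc
The motif began 122 bases before the start in GPX2 and 34 bases before it in GCLM, in both cases on the opposite strand. TXNRD1 entry 1 held it 99 bases before the start on the gene's strand and again 8 bases before it on the opposite strand, and entry 2 held it 102 bases before the start on the opposite strand.

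AKR1C1 and AKR1C2 are printed because they show how alike these gene copies are around the gene start. The sequences lie at chr10:4963165-4963464 (plus strand) and chr10:5003808-5004107 (minus strand), and neither holds the motif.
AKR1C1: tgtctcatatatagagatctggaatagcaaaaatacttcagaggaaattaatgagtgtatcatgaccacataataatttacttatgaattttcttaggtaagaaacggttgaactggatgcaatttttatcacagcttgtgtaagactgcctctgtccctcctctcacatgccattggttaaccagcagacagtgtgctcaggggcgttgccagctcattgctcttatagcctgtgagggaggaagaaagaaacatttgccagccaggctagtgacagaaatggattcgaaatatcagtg
AKR1C2: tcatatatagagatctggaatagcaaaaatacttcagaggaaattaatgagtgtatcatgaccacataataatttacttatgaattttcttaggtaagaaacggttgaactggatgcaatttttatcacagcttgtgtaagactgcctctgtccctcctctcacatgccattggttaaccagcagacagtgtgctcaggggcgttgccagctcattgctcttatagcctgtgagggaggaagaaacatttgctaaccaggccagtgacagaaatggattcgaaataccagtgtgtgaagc
Aligned to each other, they were identical at 288 of 292 bases (98.6%), against 80.9% between AKR1C1 and the first AKR1C3 entry. Most of this window lies before the gene start, so its likeness does not say what a probe measures. AKR1C probes may share signal among the copies, which was not tested because no probe or transcript sequences were compared. The same holds for AKR1B10 and its close copy AKR1B15.

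**Figure D1:**
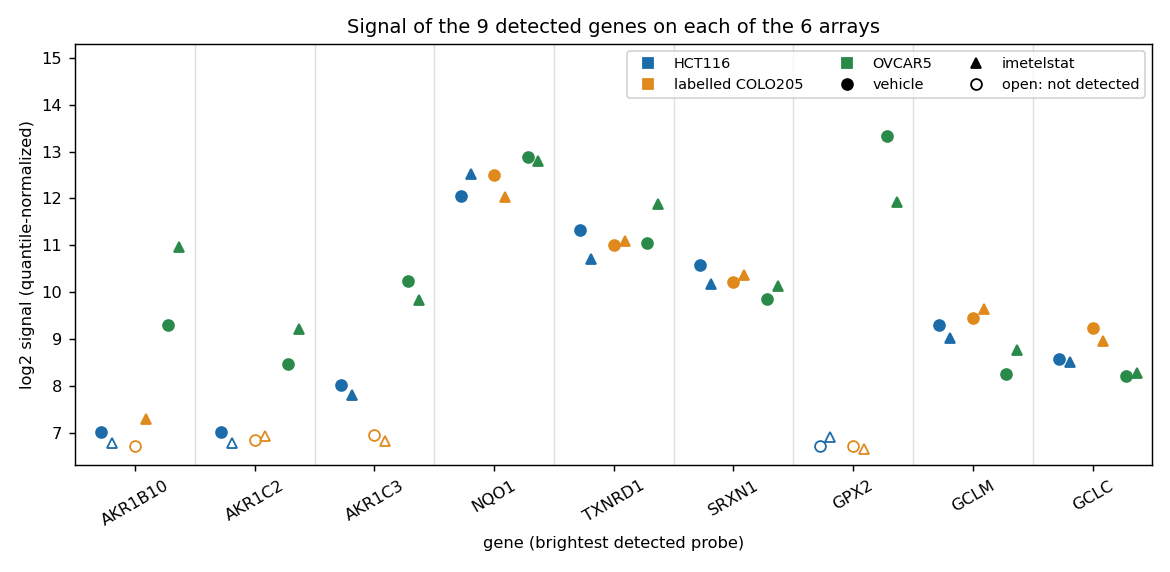
Log2 signal after quantile normalization (y axis) of each detected gene's brightest probe (x axis) on the 6 arrays, coloured by line, with circles for vehicle, triangles for imetelstat and open symbols for arrays that did not detect the probe. GPX2 was detected on the OVCAR5 arrays alone, at 13.33 and 11.93, and NQO1, TXNRD1, SRXN1, GCLM and GCLC were detected on all 6 arrays.

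On the OVCAR5 arrays AKR1B10, AKR1C2, AKR1C3 and GPX2 were far above their signals in both other lines, and GCLM was lower than in both. The 5 genes of the set that were detected on all 6 arrays had differences between lines of no more than 1.04 on the log2 scale. Limma tested the lines over both agents with Benjamini-Hochberg adjustment across all 12187 genes, so that the spread is that of the treatment effect between lines, with 2 residual degrees of freedom. 5 of 9 genes differed between OVCAR5 and HCT116, 4 higher and 1 lower, where 41% of all genes were called (19.3% higher and 21.7% lower). Between OVCAR5 and COLO205 7 of 9 differed, 5 higher and 2 lower, where 41.9% of all genes were called (19.6% higher and 22.2% lower). Between COLO205 and HCT116 1 of 9 differed, AKR1C3, which was lower in COLO205, and 1.01% of all genes were called (0.279% higher and 0.73% lower). In bulk RNA, a larger share of expressing cells and more RNA per cell cannot be told apart. GPX2 passed the detection filter through the OVCAR5 arrays alone and so had to be higher there, and its place in these counts supports nothing. Of the 5 genes detected on all 6 arrays, 1 differed between OVCAR5 and HCT116 and 3 between OVCAR5 and COLO205. The share called among all genes detected on all 6 arrays was not counted, so these 2 counts have no background. More colon markers were detected on at least 1 array in OVCAR5 (12 of 16, against 5 in each other line), and more fibroblast and immune markers (3 of 8, against 1). The part of these markers in the differences was not tested.

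**Figure D2:**
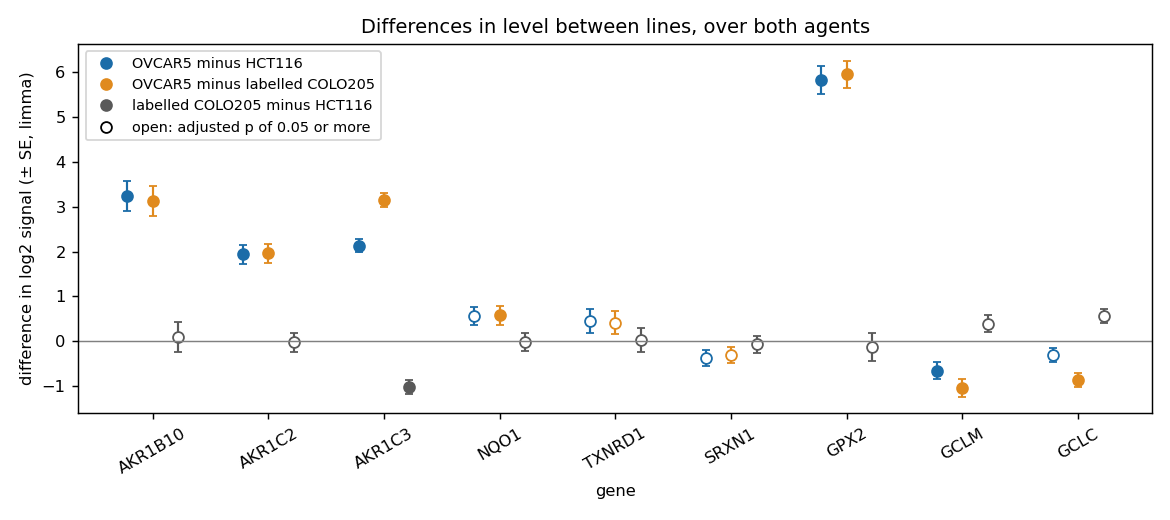
Difference in log2 signal between lines (y axis) for each gene (x axis), fitted by limma over both agents, with bars for the standard error and open points for an adjusted p of 0.05 or more. The 4 highest OVCAR5 differences are those of GPX2, AKR1B10, AKR1C3 and AKR1C2, while COLO205 minus HCT116 lies within 0.56 of 0 for every gene but AKR1C3. GPX2 entered the fit through the OVCAR5 arrays alone and had to be higher there, so its filled points support nothing.

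AKR1B10, a reductase of retinal and lipid-derived aldehydes that is found in the gut epithelium, showed the largest treatment difference of the set. Its log2 signal was 7.02 with vehicle and 6.77 with imetelstat for HCT116, 6.71 then 7.29 for COLO205, and 9.29 then 10.97 for OVCAR5. Both OVCAR5 arrays stood above the other 4, which lay near the detection limit, and HCT116 with imetelstat and COLO205 with vehicle did not detect it. In OVCAR5 the signal before normalization went from 667.7 to 2143 units and the normalized value was 3.19-fold higher with imetelstat, the log2 ratio of 1.68 ranking 4 from the highest of 10538 genes. Because vehicle was not detected in COLO205, the gene there was at least 1.19-fold higher with imetelstat, and in HCT116, where imetelstat was not detected, at least 1.02-fold lower. These bounds set the brighter array against the lowest detected signal of the dimmer one. Over both agents AKR1B10 was 3.23 (SE 0.33) higher on the log2 scale in OVCAR5 than in HCT116 (limma, adjusted p = 3.3e-05) and 3.13 (SE 0.33) higher than in COLO205 (limma, adjusted p = 3.96e-05), with 1 of the 2 arrays of each of those lines below detection.

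AKR1C2 and AKR1C3 reduce steroid hormones and prostaglandins, and their treatment differences in OVCAR5 had opposite signs. AKR1C2 was at 7.02 with vehicle and 6.79 with imetelstat for HCT116, 6.83 then 6.92 for COLO205, and 8.47 then 9.22 for OVCAR5. It was detected on both OVCAR5 arrays and on the HCT116 vehicle array, and the other 5 AKR1C2 probes were detected on none. AKR1C3 was at 8.01 with vehicle and 7.80 with imetelstat for HCT116, 6.96 then 6.82 for COLO205, and 10.24 then 9.83 for OVCAR5. Neither COLO205 array detected it. The values of the 3 lines did not overlap, and how many of all genes separate in this way was not counted. With imetelstat in OVCAR5 AKR1C2 was 1.67-fold higher, rank 82 of 10538 from the highest, whereas AKR1C3 was at 75.2% of its vehicle value. In HCT116 AKR1C2 was at least 1.02-fold lower and AKR1C3 at 86.2% of vehicle.

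Both AKR1C genes were higher in OVCAR5 than in the other lines. AKR1C2 differed from HCT116 by 1.94 on the log2 scale (SE 0.21, limma adjusted p = 5.0e-05), where 1 of 2 arrays detected it. Neither gene was detected in COLO205, so the fitted differences from that line use undetected signals and a bound is given beside each. For AKR1C2 the fitted difference from COLO205 was 1.97 (SE 0.21, limma adjusted p = 4.31e-05), and the bound was at least 3.48-fold. AKR1C3 differed from HCT116 by 2.13 (SE 0.15, limma adjusted p = 2.35e-06). Its fitted difference from COLO205 was 3.15 (SE 0.15, limma adjusted p = 1.41e-07), and the bound was at least 7.94-fold. AKR1C3 was also the gene that separated the arrays labelled COLO205 from those of HCT116, where it was at least 1.81-fold higher. The fitted difference of COLO205 minus HCT116 was -1.01 (SE 0.15, limma adjusted p = 0.0121). That call was lost when arrays were scaled to a common median (limma, adjusted p = 0.0533). The single AKR1C1 probe and the other probes of the set that no array detected had log2 signals of 6.41 to 6.83, below the lowest detected signals of 6.97 to 7.06.

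NQO1, a quinone reductase that is used as a reporter of NRF2 activity, had opposite treatment differences in HCT116 and COLO205. Its log2 signal was 12.05 with vehicle and 12.52 with imetelstat for HCT116, 12.51 then 12.02 for COLO205, and 12.88 then 12.81 for OVCAR5. HCT116 with imetelstat and COLO205 with vehicle had nearly the same value, and both OVCAR5 arrays were above the other 4. The share of all genes with both OVCAR5 arrays highest was not counted. The log2 ratio of imetelstat over vehicle was 0.47 for HCT116 and -0.48 for COLO205, and OVCAR5 had -0.07. With median scaling the COLO205 ratio was -0.92, and with the mean of probes the HCT116 ratio was 0.19. The other NQO1 probe, which enters that mean, was detected on the OVCAR5 arrays alone, at 7.16 and 7.28, close to the detection limit. Its ratios of -0.10 in HCT116 and -0.36 in COLO205 therefore set background against background. NQO1 was 0.58 (SE 0.21) higher in OVCAR5 than in COLO205 (limma, adjusted p = 0.0448) and 0.56 (SE 0.21) higher than in HCT116, which did not pass (limma, adjusted p = 0.0515). The first call was lost with median scaling, no scaling, normexp background correction, an added offset of 32 or the other probe (limma, adjusted p of 0.0539 to 0.127), and the second was made with the mean of probes (limma, adjusted p = 0.0481).

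TXNRD1, the cytosolic thioredoxin reductase, was lower with imetelstat in HCT116 and higher in OVCAR5. The log2 signal was 11.32 with vehicle and 10.72 with imetelstat for HCT116, 11.00 then 11.10 for COLO205, and 11.06 then 11.88 for OVCAR5. The vehicle arrays of the 3 lines spread from 11.00 to 11.32, and the imetelstat arrays spread from 10.72 to 11.88. In HCT116 imetelstat gave 65.7% of the vehicle value, rank 211 from the lowest of 11010 genes. In OVCAR5 it gave a 1.76-fold higher value, rank 63 from the highest of 10538 genes. A separate TXNRD1 probe, detected on all 6 arrays, gave -0.32 for HCT116, 0.05 for COLO205 and 0.86 for OVCAR5 on the log2 ratio scale. On the COLO205 arrays the ratio of the brighter probe was 0.10, and -0.35 with median scaling. The lines did not differ past the test over both agents, with OVCAR5 above HCT116 by 0.45 (SE 0.26, limma adjusted p = 0.205).

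SRXN1, which encodes sulfiredoxin and reduces overoxidized peroxiredoxins, had treatment differences of the same signs as TXNRD1. It was at 10.57 with vehicle and 10.17 with imetelstat for HCT116, 10.23 then 10.37 for COLO205, and 9.86 then 10.14 for OVCAR5. HCT116 vehicle was the highest array and OVCAR5 vehicle the lowest. The log2 ratios were -0.41, 0.15 and 0.28, of which the COLO205 value became -0.24 with median scaling. SRXN1 did not pass the test between lines (limma, adjusted p = 0.132 for OVCAR5 against HCT116 and 0.215 against COLO205, differences of -0.37 and -0.30, SE 0.18).

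GPX2, a glutathione peroxidase of the gastrointestinal epithelium, was detected on the OVCAR5 arrays and no others. Its log2 signal was 6.70 with vehicle and 6.91 with imetelstat for HCT116, 6.71 then 6.64 for COLO205, none of them detected, and 13.33 then 11.93 for OVCAR5. In OVCAR5 the signal before normalization went from 10580 units with vehicle to 4096 with imetelstat. The normalized value with imetelstat was 38.0% of vehicle, a log2 ratio of -1.40 that ranked 10 from the lowest of 10538 genes. As a description, GPX2 was at least 50.1-fold higher in OVCAR5 than in HCT116 and at least 47.9-fold higher than in COLO205, and no test is given because it entered the fit through OVCAR5 alone.

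GCLM and GCLC encode the modifier and catalytic subunits of glutamate-cysteine ligase, which makes the precursor of glutathione, and both had lower signals in OVCAR5 than in the other lines. GCLM was at 9.30 with vehicle and 9.01 with imetelstat for HCT116, 9.45 then 9.64 for COLO205, and 8.25 then 8.75 for OVCAR5. GCLC was at 8.57 with vehicle and 8.50 with imetelstat for HCT116, 9.24 then 8.95 for COLO205, and 8.20 then 8.27 for OVCAR5. The 3 lines did not overlap for either gene, with COLO205 highest and OVCAR5 lowest. Between agents GCLM had a log2 ratio of -0.28 for HCT116, 0.19 for COLO205 (-0.18 with median scaling) and 0.50 for OVCAR5, whereas GCLC had -0.07, -0.29 (-0.62 with median scaling) and 0.08. The other GCLM probe, closer to the detection limit, gave -0.34, 0.09 and -0.20, so that its sign in OVCAR5 was the opposite.

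For GCLM the difference of OVCAR5 was -0.65 (SE 0.19) from HCT116 (limma, adjusted p = 0.0187) and -1.04 (SE 0.19) from COLO205 (limma, adjusted p = 0.00139). With the other GCLM probe neither difference passed (-0.14, limma adjusted p = 0.538, and -0.18, limma adjusted p = 0.398), and the HCT116 difference was also lost with normexp correction (limma, adjusted p = 0.0504) and the mean of probes (limma, adjusted p = 0.0773). GCLC was lower in OVCAR5 than in COLO205 by a difference of -0.86 (SE 0.16, limma adjusted p = 0.00136), which missed the threshold without scaling (limma, adjusted p = 0.0548). Its difference from HCT116 was -0.30 (SE 0.16, limma adjusted p = 0.151).

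**Figure D3:**
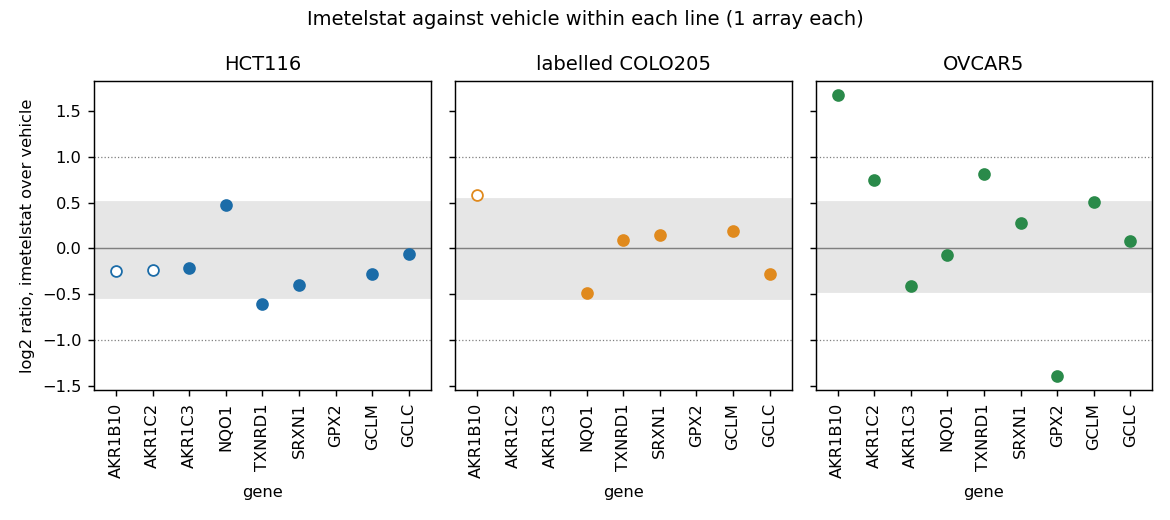
Log2 ratio of imetelstat over vehicle (y axis) for each gene (x axis) in each line, 1 array against 1 array, with open points where 1 array of the pair did not detect the gene, genes that neither array detected left out, dotted lines at 2-fold and a grey band that holds the central 95% of all genes detected in that line. In OVCAR5 AKR1B10 and GPX2 lie past 2-fold on opposite sides, and no gene does so in HCT116 or COLO205.

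Counted by size, imetelstat and vehicle differed at least 2-fold for 2 of 9 genes in OVCAR5, AKR1B10 higher and GPX2 lower, where 0.598% of 10538 genes did so (0.256% higher and 0.342% lower). In HCT116 0 of 8 detected genes reached 2-fold, where 0.827% of 11010 genes did (0.0908% higher and 0.736% lower), and in COLO205 0 of 6, where 0.297% of 10445 genes did (0.134% higher and 0.163% lower). In OVCAR5 6 of 9 genes were higher with imetelstat, with a median log2 ratio of 0.28, beside 49.1% of all genes and a median of -0.01. In HCT116 1 of 8 was higher, NQO1, with a median of -0.24, beside 50.8% of all genes and a median of 0.01. In COLO205 4 of 6 were higher, with a median of 0.12, beside 48.9% of all genes and a median of -0.01. That COLO205 direction turned with median scaling, where 1 of 6 was higher with a median of -0.30, beside 16.8% of all genes and a median of -0.26. The COLO205 ratios of the lists that follow carry the same shift between scalings.

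Across the 3 lines, imetelstat and vehicle did not differ past the threshold for any of the 9 genes (limma with line as a block, adjusted p = 1.00 for each), and 0 of all 12187 genes passed, which is 0%. 1 of the 9 had an unadjusted p below 0.05 beside 329 of all genes (2.7%). This was AKR1B10, with a mean log2 difference of 0.67 (SE 0.27, limma unadjusted p = 0.0328) and a higher signal in 2 of 3 lines. A plain paired test over the lines also called 0 of the 9. AKR1C3 had a lower value with imetelstat on each pair, though undetected in COLO205, with a mean of -0.25 (SE 0.12, limma unadjusted p = 0.0659). When a line was left out, 0 of the 9 passed in each case, while 13 genes passed in the whole table without OVCAR5, 3 without COLO205 and 0 without HCT116.

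The regulators of the pathway were read from a list of 9 genes, of which 6 were detected. NFE2L2 itself had a log2 signal of 10.27 with vehicle and 9.78 with imetelstat for HCT116, 10.27 then 9.61 for COLO205, and 10.57 then 10.35 for OVCAR5. Imetelstat was below vehicle in all 3 lines, with log2 ratios of -0.49, -0.66 and -0.22 and a mean of -0.46 (SE 0.13, limma unadjusted p = 0.0056 and adjusted p = 1.00). Of 9273 genes detected in every line, 10.5% were lower in all 3. KEAP1, the repressor, had log2 ratios of 0.02, 0.02 and -0.07 in HCT116, COLO205 and OVCAR5, and its other probe, of nearly the same brightness, gave -0.19, 0.24 and 0.19. MAFG, a small MAF partner, had 0.09, 0.11 and -0.06, and 0.24, 0.24 and 0.11 with its other probe detected on all arrays. The probes of both genes thus differed in sign in OVCAR5, and those of KEAP1 also in HCT116. SQSTM1, an autophagy receptor that sequesters KEAP1, had -0.51, 0.46 and -0.05. By the brightest probe, 0 of 6 regulators were higher with imetelstat in OVCAR5, beside 49.1% of all genes. HCT116 had 4 of 6, beside 50.8% of all genes, and COLO205 had 4 of 6, beside 48.9%. With median scaling the COLO205 ratios of the 6 regulators ran from -1.02 to 0.01, with 1 of 6 higher, beside 16.8% of all genes.

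Between lines 3 of the 6 regulators were higher in OVCAR5 than in HCT116 and 3 were higher than in COLO205, with none lower, where 19.3% and 19.6% of all genes were called higher. The small MAF protein MAFF differed from HCT116 by 1.39 and from COLO205 by 1.59 (limma, adjusted p = 5.21e-05 and 1.97e-05). A dimmer MAFF probe was at 7.48 for HCT116 and 7.91 for OVCAR5 with vehicle. SQSTM1 differed by 0.70 and 0.79 (limma, adjusted p = 0.0211 and 0.0114). NFE2L2 differed by 0.52 from COLO205 (limma, adjusted p = 0.0239) and by 0.43 from HCT116 (limma, adjusted p = 0.0516), and NFE2L1, a related factor that controls proteasome genes, by 0.44 from HCT116 (limma, adjusted p = 0.0394) and 0.19 from COLO205 (limma, adjusted p = 0.341). The median difference of the 6 was 0.44 against HCT116, where that of all genes was -0.04.

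Other NRF2 targets were taken from a list of 32 genes, of which 27 had a named probe and 22 were detected. ALDH3A1, an aldehyde dehydrogenase, had a pattern like that of GPX2: its log2 signal was 12.10 with vehicle and 10.65 with imetelstat in OVCAR5, and no other array detected it. Its OVCAR5 log2 ratio of -1.46 ranked 7 from the lowest of 10538 genes, and it was the gene of this list that reached 2-fold. ME1, the cytosolic malic enzyme that supplies NADPH, had ratios of -0.15, -0.37 and 0.60 in HCT116, COLO205 and OVCAR5. PIR, an iron-binding nuclear protein, had -0.07, -0.09 and 0.46 (0.42, -0.21 and 0.50 with its other probe), and HMOX1, the inducible haem oxygenase, -0.63, -0.15 and 0.45. In OVCAR5 14 of 20 detected targets were higher with imetelstat, with a median log2 ratio of 0.14, beside 49.1% of all genes. HCT116 had 12 of 19 and 0.07, beside 50.8% of all genes, and COLO205 had 5 of 19 and -0.07, beside 48.9%. With median scaling the COLO205 count was 1 of 19 with a median of -0.41, where 16.8% of all genes were higher with a median of -0.26.

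In the line comparison 8 of the 22 targets were higher and 4 lower in OVCAR5 than in HCT116, and 7 higher and 5 lower than in COLO205, with median differences of 0.04 and -0.02. Of all genes 19.3% were called higher and 21.7% lower than in HCT116, and 19.6% and 22.2% against COLO205. Genes that passed the detection filter through OVCAR5 alone, such as ALDH3A1, AKR1B15 and GPX3, are part of these and the following counts and had to be higher there. The export pump ABCC3 was 2.13 higher than in HCT116 and 2.72 higher than in COLO205 (limma, adjusted p = 1.3e-05 and 2.24e-06). ABCC2, another export pump, was detected on all 4 arrays of HCT116 and COLO205 and on neither of OVCAR5. GSR, which regenerates reduced glutathione, differed by -1.41 from HCT116 and -1.13 from COLO205 (limma, adjusted p = 6.83e-05 and 2.86e-04).

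The other aldo-keto reductases comprised 7 genes, of which 5 were detected. In OVCAR5 4 of the 5 were higher with imetelstat, with a median log2 ratio of 0.31, beside 49.1% of all genes. HCT116 had 3 of 4 and 0.20, beside 50.8% of all genes, and COLO205 had 3 of 4 and 0.09, beside 48.9%. With median scaling the COLO205 count was 1 of 4 with a median of -0.30, beside 16.8% of all genes. Between lines 3 were called higher in OVCAR5 than in HCT116 and 2 higher than in COLO205, with none lower. Of all genes 19.3% and 19.6% were called higher. AKR1B15 was detected on the OVCAR5 arrays alone, at 7.20 with vehicle and 8.27 with imetelstat, a log2 ratio of 1.07 that ranked 22 from the highest of 10538 genes. It is the close copy of AKR1B10, and how much signal their probes share was not tested. AKR7A3, which reduces aflatoxin dialdehyde, had log2 ratios of 0.31, 0.01 and 0.43, and AKR7A2, which reduces succinic semialdehyde, 0.72, -0.49 and 0.23. The second of these changed sign between HCT116 and COLO205 in the same direction as NQO1. For AKR1D1, a steroid reductase of the liver, 1 probe had a log2 signal of 12.52 to 13.35 on the 6 arrays and the other was detected on none. AKR1C4, a liver enzyme of the same cluster as AKR1C3, was 1.23 higher in OVCAR5 than in HCT116 and 1.25 higher than in COLO205 (limma, adjusted p = 1.18e-04 and 1.04e-04). Its treatment ratio in OVCAR5 was -0.01. These values rest on 1 AKR1C4 probe, which may share signal with the other AKR1C copies, and the other was detected on no array.

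Paralogues of the redox genes and other antioxidant enzymes comprised 19 genes, of which 15 were detected. Against HCT116 3 were higher and 5 lower in OVCAR5, and against COLO205 4 were higher and 6 lower, beside 19.3% and 21.7%, and 19.6% and 22.2%, of all genes. GPX3, a secreted glutathione peroxidase, was detected on the OVCAR5 arrays alone, at 10.84 and 10.82, and so shared the line pattern of GPX2 but had a treatment ratio of -0.01. PRDX4, SOD1 and NQO2, a peroxiredoxin of the endoplasmic reticulum, the cytosolic superoxide dismutase and a paralogue of NQO1, were lower in OVCAR5 than in HCT116 by differences of -1.28, -0.91 and -0.98 (limma, adjusted p = 1.5e-04, 7.1e-04 and 1.67e-03). SOD2, the mitochondrial superoxide dismutase, was lower by -0.65 (limma, adjusted p = 0.0225). With imetelstat, GPX8 was 2.02-fold higher in OVCAR5, although its other probe gave a log2 ratio of 0.37, and GLRX, a glutaredoxin, had a ratio of 0.53. SESN2, a stress-induced sestrin, was at 7.17 in OVCAR5 with imetelstat and not detected there with vehicle. In OVCAR5 8 of the 15 were higher with imetelstat, with a median log2 ratio of 0.00, beside 49.1% of all genes. HCT116 had 9 of 14 and 0.13, beside 50.8% of all genes, and COLO205 had 6 of 14 and -0.08, beside 48.9%. With median scaling the COLO205 count was 1 of 14 with a median of -0.48, beside 16.8% of all genes.

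**Figure D4:**
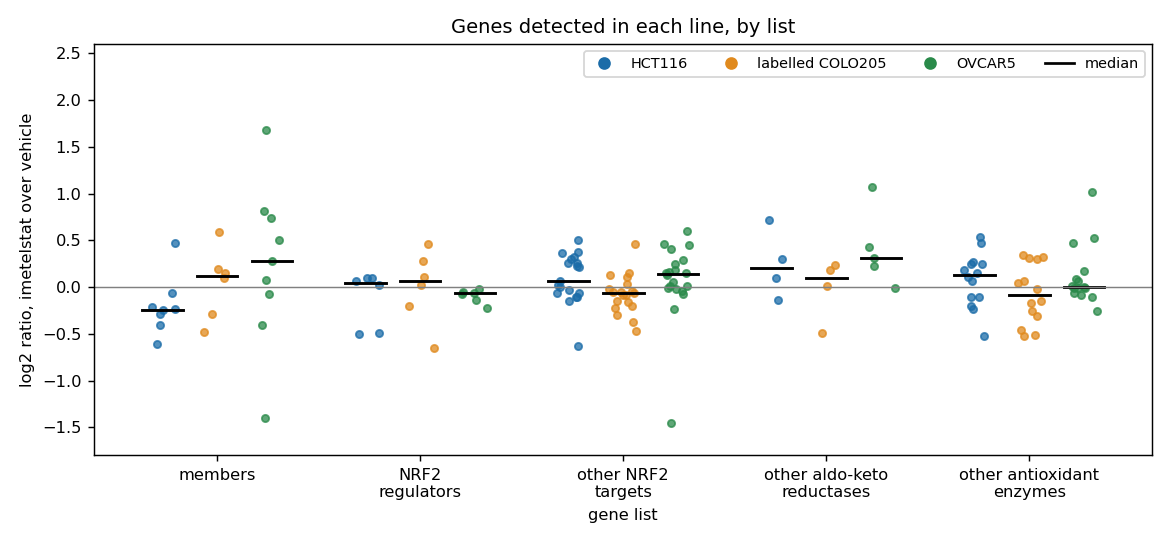
Log2 ratio of imetelstat over vehicle (y axis) of each detected gene in 5 gene lists (x axis), coloured by line, with black bars for medians. The followed genes detected in each line (members) had medians of -0.24 for HCT116, 0.12 for COLO205 and 0.28 for OVCAR5, and the other NRF2 targets medians of 0.07, -0.07 and 0.14.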

How the data were processed

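Total RNA of HCT116, COLO205 and OVCAR5 cells, with vehicle or imetelstat, was hybridized to Illumina HumanHT-12 arrays, 1 array per line and agent. The authors deposited signal intensities that are bead averages on a linear scale, not normalized between arrays, and the deposited detection p-values set each probe against negative controls. The processed intensities of the authors are quantile-normalized on a linear scale (each column had a Spearman's rho of 1 with that array's signals), although the methods describe log2 values. Versions of GenomeStudio and lumi are not given in the sources used here.

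Log2 signals were quantile-normalized with limma 3.58.1 under R 4.3.3. Detection meant a detection p below 0.01, reached by 21099 of 47231 probes on at least 1 array, and the brightest detected probe stood for its gene. Of all probes 30113 had 1 gene symbol, 8 several and 17110 none, and 30074 symbols were updated by gene identifier. Where a group was not detected, a fold is a bound: the mean of the brighter group over the lowest detected signal of the dimmer arrays, or the probe's own signal if higher.

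Within a line, genes were counted at a limit of 2-fold without any test. The agents were compared across lines by limma (lmFit, eBayes) with line as a block, and the 3 pairs of lines with the agent as a covariate, with Benjamini-Hochberg adjustment over 12187 genes at 0.05. The labels show no separate cultures within a line and agent, so p-values measure only the spread between these arrays, whose number limits the precision. The pairing is that of the line itself, since both arrays of a pair are the same line.

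The followed genes and the lists were chosen with earlier results of these data known. Named genes were all 10 followed genes, NFE2L2 and KEAP1, and from each list the genes at least 2-fold different in a line, up to 4 with the largest OVCAR5 ratio and up to 4 with the largest line difference. CEACAM5, CEACAM6, CDH17 and KRT20 were named after their values were seen. The fits were tested on simulated data. Alternatives were no scaling, median scaling, normexp correction with an offset of 16, an added offset of 32, the mean of probes, the authors' processed intensities, detection in other numbers of arrays or at 0.05, a variance trend, 1.5-fold and 3-fold limits, a plain paired test, each probe on its own, no block and leaving out each line. The other detected probe was added after seeing the data. Promoters were read from RefSeq tables of GRCh38.p14 and aligned with Biopython 1.88 under Python 3.11.15. Tables and plots were made with pandas 2.3.3, numpy 2.4.6 and matplotlib 3.10.9. The files name no genome build, so no probe coordinates are given.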

Additional observations from a re-analysis of the deposited data

Results flagged for a closer look

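For 4 genes the log2 ratio of imetelstat over vehicle had opposite signs in a pair of lines, each measured ratio beyond 1 SD of the ratios of the 500 genes nearest in signal in that line. The rule was applied over all pairs of lines to the followed genes only, so the share of all genes that meet it is not known. Of these ratios, AKR1B10 in HCT116 (-0.2490 against an SD of 0.2486) and SRXN1 in OVCAR5 (0.281 against 0.268) passed narrowly. In every case 1 array stood against 1 array, and the difference between the lines was not tested.

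AKR1B10 had a log2 ratio of -0.25 for HCT116, 0.58 for COLO205 and 1.68 for OVCAR5, so that HCT116 minus COLO205 was -0.833 and HCT116 minus OVCAR5 was -1.92. The HCT116 imetelstat and COLO205 vehicle arrays did not detect it, so these values rest on background signal. Set as bounds against the lowest detected signal, the gene was at least 1.02-fold lower in HCT116 and at least 1.19-fold higher in COLO205, and neither bound reached 1 SD. NQO1 was higher with imetelstat in HCT116 by 0.47 and had -0.48 in COLO205, a difference of 0.954, and the arrays of these lines were nearly as alike as the arrays of a single line (r of 0.976 to 0.987 against 0.987 within each). TXNRD1 had -0.61 in HCT116 and 0.82 in OVCAR5, a difference of -1.42, and its separate probe had the same signs. SRXN1 had -0.41 and 0.28 in these lines, a difference of -0.687.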

How the results depend on the processing

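The number of arrays, 1 per line and agent, limits every value, and genes near the detection limit (AKR1B10 and AKR1C2 outside OVCAR5) have little room to be lower. Of the 13 differences between lines that passed the test, 70 of 81 alternative values kept their direction and their side of the threshold, and 11 lost significance. The GPX2 differences are among these 13. That gene entered through OVCAR5 alone and had to be higher there, so its share of the 70 supports nothing. AKR1B10, AKR1C2 and AKR1C3 stayed past the threshold in OVCAR5 against both lines in every alternative that kept them. For AKR1C2 each of these rests on the same 1 of its 6 probes. The rest were detected on no array and were used in no alternative, so agreement between its probes was not tested.

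Requiring detection on all 6 arrays removed AKR1B10, AKR1C2, AKR1C3 and GPX2, which lowered the count of genes at least 2-fold different in OVCAR5 from 2 to 0, that of OVCAR5 against HCT116 from 5 to 1, that of OVCAR5 against COLO205 from 7 to 3, and that of COLO205 against HCT116 from 1 to 0. The share of all genes called under that filter was not counted. Median scaling also gave 0 for COLO205 against HCT116. Normexp correction put AKR1B10 past 2-fold in COLO205, a count of 1 instead of 0. A limit of 1.5-fold gave 1 gene in HCT116 (TXNRD1) and 4 in OVCAR5 (AKR1B10, AKR1C2, GPX2 and TXNRD1), and a limit of 3-fold gave 1 in OVCAR5 (AKR1B10).

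The COLO205 minus HCT116 difference turned to -0.0618 for AKR1B10 without scaling, and to -0.29 without scaling and -0.19 with median scaling for TXNRD1. For NQO1 it turned to 0.00409 with the other probe, which neither line detected. None of these passed the test under any setting, and the cause was not tested.

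Leaving out a line gave 0 genes for imetelstat against vehicle each time, 7 for OVCAR5 against COLO205, 6 for OVCAR5 against HCT116 (NQO1 added without COLO205) and 1 for COLO205 against HCT116. GPX2, which had to be higher in OVCAR5, was not taken out of the OVCAR5 counts. The labels carry no replicate numbers. The pairs are the lines, and the fit without the replicate block, with the line left out, also gave 0.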
